A study of Mus musculus with 12 samples.

Results

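The genes described here are 36 genes of sterol and fatty acid synthesis known as targets or regulators of the sterol regulatory element-binding proteins (SREBPs), picked by gene name from a fixed list. Each name matched 1 of the 52550 genes of the table, and all 36 passed the filter on low counts that left 16823 genes for testing. By role they are 6 regulators, 18 enzymes of sterol synthesis (7 of the mevalonate and isoprenoid steps and 11 from squalene onward) and 12 enzymes of fatty acid synthesis (6 that make acetyl-CoA, malonyl-CoA, NADPH and palmitate, and 6 that elongate or desaturate fatty acids). They were measured by RNA-seq of total RNA from the mouse mammary tumour lines D2A1, which proliferates in 3D, and D2.OR, which becomes dormant there. The labels give no transgene, deletion or drug treatment for either line, and each was cultured for 7 days in 2D on plastic or in 3D on top of growth-factor-reduced Matrigel. Each of the 4 groups held 3 libraries from separately numbered batches, 12 in all, and each batch had its own sequencing lane, so that batch and lane cannot be told apart. Each library pooled several wells of 1 line. As 1 line stands for each behaviour, a difference between the lines cannot be told apart from a difference between the tumours they came from. For the RNA samples the methods point back to their account of cell culture, which gives high-glucose DMEM for standard 2D experiments. The account of the Matrigel assay gives its low-serum medium, with added insulin, hydrocortisone and cholera toxin, for 3D and for 2D on plastic. The media of the sequenced 2D and 3D cultures may thus have differed, and a medium that differed cannot be told apart from the culture.

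Cells make cholesterol from acetyl-CoA through mevalonate, farnesyl diphosphate and squalene, and they make fatty acids from the same acetyl-CoA through malonyl-CoA. When sterols in the endoplasmic reticulum run low, SCAP carries the SREBP precursors to the Golgi, where proteases release the part that enters the nucleus. INSIG proteins hold SCAP back when sterols are plentiful. SREBP-2, from Srebf2, acts mainly on the sterol genes and SREBP-1, from Srebf1, mainly on the fatty acid genes. Proliferating cells draw on both pathways for membranes.

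Batch 1 stood apart from the other batches over all genes tested, and this touched most results below. The root mean square difference of log2 CPM between the D2A1 2D and 3D libraries of batch 1 was 0.316, whereas these libraries differed from those of the same culture in batches 2 and 3 by 0.533 to 0.634 and the 2D and 3D libraries of batches 2 and 3 from each other by 0.618 to 0.713. In D2.OR the corresponding values were 0.468, 0.52 to 0.589 and 0.466 to 0.536. Libraries of the same culture in batches 2 and 3 differed by 0.231 to 0.323. The counts of members called are therefore given with all 12 libraries and without batch 1, the latter from 8 libraries with 2 in each group. Library totals ran from 47589611 to 73325069 counts, and a member had between 412 and 203706 counts in a library, so that counting error was small beside the spread between batches. Of the mammary epithelial markers, Krt8 lay at 227 to 1022 TPM in D2.OR but at 0.78 to 2.31 TPM in D2A1, Epcam and Cdh1 were at or under 0.28 TPM in D2A1, and Krt5 was at or under 0.03 TPM in all libraries, whereas Krt18 was at 92.7 TPM or above in every library. Krt8, Epcam, Cdh1 and Krt14 were called higher in D2.OR in both cultures and Krt18 in 2D. Within D2.OR, Cdh1 was lower in 3D (-1.36 ± 0.21, adjusted p = 0.0215), and Krt8 and Krt18 had log2 fold changes of -1.31 ± 0.38 (adjusted p = 0.125) and -1.37 ± 0.38 (adjusted p = 0.115). The fibroblast markers Col1a1 and Pdgfra and the mesenchymal marker Vim were higher in D2.OR in both cultures, Col1a1 at 7.65 to 57.1 TPM against 0.26 to 3.33 TPM and Pdgfra at 59.4 to 149.9 TPM against 14.2 to 33.9 TPM, whereas Dcn and Fn1 were not called. The part of these markers in the member results was not tested. Of the leukocyte and endothelial markers, Ptprc, Adgre1 and Cdh5 were at or under 0.05 TPM and Pecam1 at or under 0.4 TPM throughout. Cd68, a lysosomal protein of macrophages, was at 6.84, 16.8 and 32.1 TPM in the D2A1 2D libraries of batches 1, 2 and 3 and at 2.22 to 10.04 TPM in the other 9, and was lower in D2.OR in 2D (log2 fold change -2.41 ± 0.62, edgeR quasi-likelihood test, adjusted p = 0.0103). Its part in the 2D results was not tested. TPM is a level scaled for transcript length and library size. In RNA from whole cultures, fewer cells of a type and less RNA per cell cannot be told apart.

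Before the values, the promoters of 5 members are shown, each for a pattern that follows. Hmgcs1 was the only member whose window held the letters of a sterol regulatory element. Hsd17b7 had the largest ratio of highest to lowest TPM between the D2A1 2D libraries. Mvd was the sterol enzyme called higher in D2.OR, Srebf2 is the regulator of the sterol genes, and Elovl5 was the member called in both lines. Each promoter is the 250 bases before the RefSeq transcription start on build GRCm38.p6. Capitals mark the matches to the 3 motifs searched on both strands.
Hmgcs1: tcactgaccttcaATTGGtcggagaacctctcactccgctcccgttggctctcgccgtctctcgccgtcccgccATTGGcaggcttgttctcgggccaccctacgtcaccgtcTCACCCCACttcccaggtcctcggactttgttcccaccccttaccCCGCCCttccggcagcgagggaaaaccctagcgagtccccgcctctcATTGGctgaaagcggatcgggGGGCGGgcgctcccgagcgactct
Hsd17b7: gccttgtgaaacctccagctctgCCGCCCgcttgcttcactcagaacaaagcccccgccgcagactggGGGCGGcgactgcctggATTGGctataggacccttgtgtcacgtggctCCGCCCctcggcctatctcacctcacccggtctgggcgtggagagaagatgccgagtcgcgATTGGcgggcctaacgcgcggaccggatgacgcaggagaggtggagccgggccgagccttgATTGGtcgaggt
Mvd: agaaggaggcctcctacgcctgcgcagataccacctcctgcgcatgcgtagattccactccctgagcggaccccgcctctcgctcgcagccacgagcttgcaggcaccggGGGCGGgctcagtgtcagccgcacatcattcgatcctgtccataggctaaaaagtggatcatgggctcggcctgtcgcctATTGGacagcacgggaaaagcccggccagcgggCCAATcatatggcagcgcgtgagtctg
Srebf2: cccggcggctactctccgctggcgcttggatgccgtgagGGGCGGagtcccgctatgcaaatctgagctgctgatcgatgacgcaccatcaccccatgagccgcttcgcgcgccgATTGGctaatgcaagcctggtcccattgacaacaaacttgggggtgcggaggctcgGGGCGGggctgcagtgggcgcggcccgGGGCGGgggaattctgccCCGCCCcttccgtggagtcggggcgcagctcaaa
Elovl5: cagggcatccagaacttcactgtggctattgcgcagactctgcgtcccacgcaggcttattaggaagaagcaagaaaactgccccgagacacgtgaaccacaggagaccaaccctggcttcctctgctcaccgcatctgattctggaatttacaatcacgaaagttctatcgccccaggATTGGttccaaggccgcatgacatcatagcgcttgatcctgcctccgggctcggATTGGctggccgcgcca
They lie at chr13:119690101-119690350 (plus strand), chr1:169969206-169969455 (minus strand), chr8:122443423-122443672 (minus strand), chr15:82147019-82147268 (plus strand) and chr9:77917115-77917364 (plus strand). The motifs were TCACNCCAC (a sterol regulatory element), CCAAT (the box bound by NF-Y) and GGGCGG (the box bound by Sp1), and an NF-Y box on the minus strand can share its last bases with an Sp1 box. In Hmgcs1 the sterol regulatory element began 137 bases before the start, between NF-Y boxes that began 237, 176 and 45 bases before it. Promoters were listed for 29 members, and 23 of them (79.3%) held an NF-Y box in at least 1 promoter against 40.3% of the 11148 genes tested that had a promoter listed and 37.5% of all 27025 genes listed. For the Sp1 box the figures were 23 of 29 (79.3%), 61.6% and 35.4%, and for the sterol regulatory element 1 of 29 (3.45%), 1.26% and 1.22%. Among the sterol enzymes, 14 of 15 held an NF-Y box and 14 of 15 an Sp1 box. Among the fatty acid enzymes, 5 of 9 held an NF-Y box and 4 of 9 an Sp1 box. For Acaca and Acacb the only starts listed lay 65766 and 18983 bases from the deposited gene starts, so these windows may not be their main promoters. The median GC content of the windows was 62.8% for members and 59.6% for the genes tested, and its part in these shares was not tested. A match is a run of letters and not a measured binding site, and elements with other letters or outside the 250 bases were not searched.

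**Figure D1:**
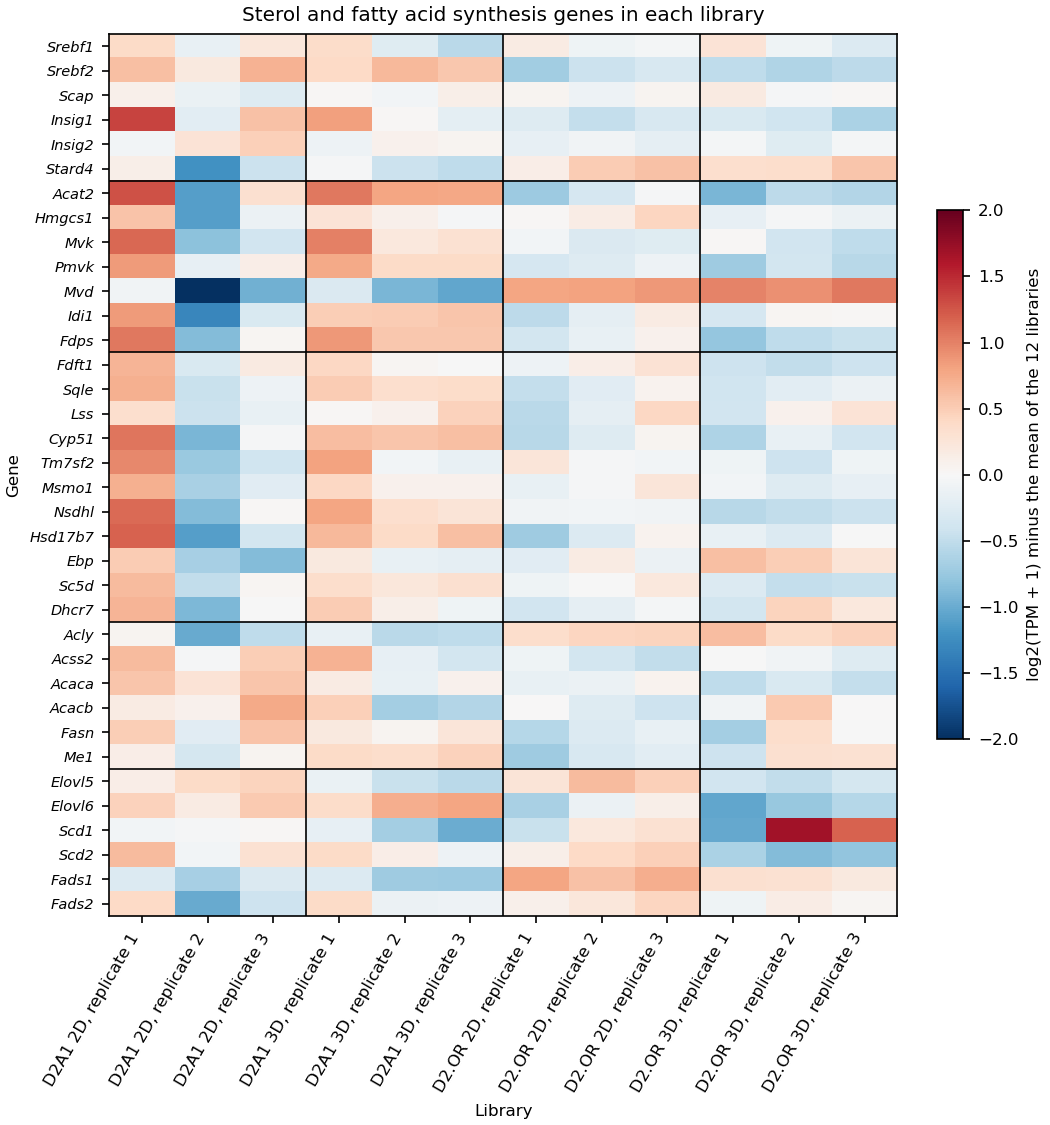
Level of each of the 36 genes (rows, in the order regulators, mevalonate and isoprenoid steps, squalene and sterol steps, fatty acid synthesis, elongation and desaturation) in each of the 12 libraries (columns), as log2(TPM + 1) minus the gene's mean over the 12 libraries. Most sterol enzymes are high in D2A1 2D replicate 1 and low in D2A1 2D replicate 2, and Mvd is high in all 6 D2.OR libraries.

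All 36 genes were expressed in all 12 libraries, from 4.0 TPM for Acacb in D2A1 3D replicate 2 to 1106 TPM for Scd1 in D2.OR 3D replicate 2. The most abundant regulators were Srebf1, Insig1 and Srebf2, the most abundant sterol enzymes Fdps, Mvd and Msmo1, and the most abundant fatty acid enzymes Scd2, Scd1 and Acly. The summed level of the 36 genes was 6733, 3283 and 4622 TPM in the D2A1 2D libraries of batches 1, 2 and 3. It was 5809, 4690 and 4548 TPM in D2A1 3D, 4263, 4830 and 5273 TPM in D2.OR 2D, and 3812, 4894 and 4540 TPM in D2.OR 3D. Values for 3 libraries are given in this batch order throughout. The D2A1 2D cultures were the least alike, and this came mostly from the sterol enzymes, whose summed level was 3444, 1084 and 1772 TPM there against 2898, 2350 and 2354 TPM in D2A1 3D, 1719, 1931 and 2209 TPM in D2.OR 2D and 1680, 1808 and 1828 TPM in D2.OR 3D. Of the 18 sterol enzymes, 15 had their highest level of all 12 libraries in D2A1 2D replicate 1, and 13 had their lowest in D2A1 2D replicate 2.

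The genes are placed below as the deposited table gives them on build GRCm38. Of the regulators, Srebf2 differed between the lines in both cultures and Srebf1 in neither. Srebf2 (chr15:82147266-82205376, plus strand), the precursor gene of the main sterol regulator, was at 160.0, 121 and 171 TPM in D2A1 2D and 138, 165 and 152 TPM in D2A1 3D, and at 64.6, 77.6 and 83.9 TPM in D2.OR 2D and 73.8, 68.5 and 72.4 TPM in D2.OR 3D. All 6 D2.OR libraries were below all 6 D2A1 libraries. The log2 fold change of D2.OR against D2A1 (from the counts, ± SE) was -0.87 ± 0.14 in 2D (edgeR quasi-likelihood test, adjusted p = 0.00107) and -1.11 ± 0.15 in 3D (adjusted p = 0.000249). Both calls held under all 24 alternatives run. Srebf1 was at 152, 104 and 135 TPM in D2A1 2D, 149, 97.6 and 79.4 TPM in D2A1 3D, 130.2, 109 and 113 TPM in D2.OR 2D and 140.1, 109 and 95.6 TPM in D2.OR 3D. These ranges overlapped, with log2 fold changes between the lines of -0.02 ± 0.14 in 2D (adjusted p = 0.932) and 0.06 ± 0.14 in 3D (adjusted p = 0.732). The span of Srebf1 shares 109 bases with that of Rai1 on the other strand, which reached 29.2 TPM.

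Insig1, which retains SCAP in the endoplasmic reticulum and is itself an SREBP target, was at 264, 89 and 155 TPM in D2A1 2D and 182, 104 and 89.9 TPM in D2A1 3D. In D2.OR it was at 86.3, 74 and 82.3 TPM in 2D and 82.7, 77.8 and 66.2 TPM in 3D. Every D2.OR library was below every D2A1 library, and the batch 1 libraries of D2A1 were the highest. Insig1 was lower in D2.OR in 2D (log2 fold change -0.87 ± 0.26, adjusted p = 0.0199) and in 3D (-0.71 ± 0.25, adjusted p = 0.0412). The 2D call was lost under 6 of 24 alternatives (highest adjusted p = 0.111, without batch 3) and the 3D call under 13 (0.159, without D2.OR 3D replicate 1). Without batch 1 neither was called, at -0.53 ± 0.23, adjusted p = 0.0892 in 2D and -0.50 ± 0.23, adjusted p = 0.101 in 3D. Stard4, a soluble sterol carrier, went the other way. It was at 55.1, 21.3 and 37.2 TPM in D2A1 2D and 49.6, 37.3 and 35.5 TPM in D2A1 3D against 56, 72.7 and 76.9 TPM in D2.OR 2D and 64.4, 64.9 and 75 TPM in D2.OR 3D, so that the D2.OR libraries were all above those of D2A1 in the same culture. It was higher in D2.OR by 1.07 ± 0.27 in 2D (adjusted p = 0.00916) and 0.78 ± 0.26 in 3D (adjusted p = 0.0323), and the calls were lost under 2 (highest adjusted p = 0.119, without batch 2) and 7 (0.245, without batch 3) of 24 alternatives. Scap, the SREBP escort, and Insig2, the second SCAP anchor, stayed within narrow ranges, from 45.1 to 61.6 TPM and from 34.6 to 57.9 TPM, and neither was called in any comparison with all 12 libraries. Without batch 1, Scap was higher in D2.OR in 2D (0.31 ± 0.08, adjusted p = 0.0174) and higher in 3D than in 2D in D2A1 (0.36 ± 0.08, adjusted p = 0.0151), and Insig2 was lower in D2.OR in 2D (-0.35 ± 0.11, adjusted p = 0.0327).

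**Figure D2:**
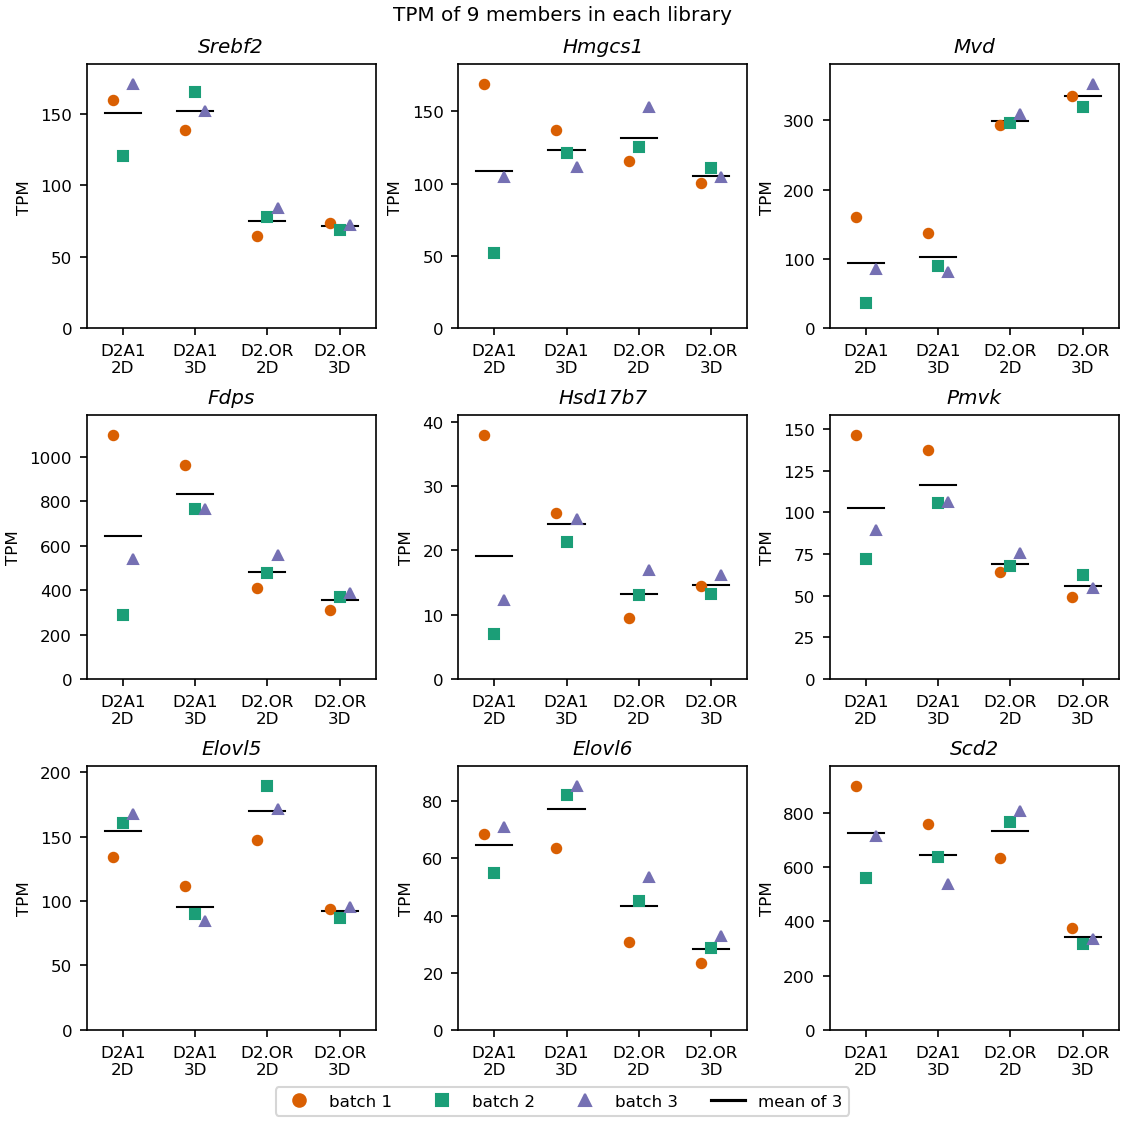
TPM (vertical axis, from 0) of 9 members in the 4 groups, with 1 point per library marked by batch and a bar at the mean of 3. Srebf2 and Elovl6 are lower and Mvd is higher in D2.OR than in D2A1, Pmvk is lower in 3D and overlaps in 2D, and Fdps, Hmgcs1 and Hsd17b7 spread widely between the D2A1 2D libraries.

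In 3D, D2.OR cells had less mRNA of several sterol enzymes than D2A1 cells, while Mvd was higher. Across all 36 members, 16 were called between the lines in 3D (4 higher and 12 lower in D2.OR), which is 44.4% against 53.8% of all genes tested, so that members were called no more often than genes at large. The groups did not overlap for 24 of the 36 members, beside 57.4% of all genes. Their median log2 fold change was -0.40, beside 0.00 over all genes tested. Of the 18 sterol enzymes, 7 were lower and 1 higher, 16 had a negative log2 fold change, and the median was -0.65. The median difference of the 18 within batches 1, 2 and 3 was -0.93, -0.58 and -0.55. Without batch 1, 21 members were called in 3D (7 higher, 14 lower, against 56.9% of all genes), among them 10 sterol enzymes lower and 2 higher, and 15 of the 16 calls with all libraries were kept. Without batch 2, 11 members were called (3 higher, 8 lower, against 31% of all genes), of which 3 sterol enzymes were lower and 1 higher. Without batch 3, 5 were called (1 higher, 4 lower, against 35.2% of all genes), of which 1 sterol enzyme was lower.

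The median log2 fold change in 3D was -0.88 over the 7 enzymes of the mevalonate and isoprenoid steps and -0.59 over the 11 enzymes from squalene onward. Acat2, which joins acetyl-CoA units at the entry to the pathway, was at 153, 127 and 125 TPM in D2A1 3D and 38.4, 50.6 and 48.2 TPM in D2.OR 3D. The groups did not overlap, and the log2 fold change was -1.54 ± 0.47 (adjusted p = 0.0199). Acat2 has a close copy, Acat3, with which it may share reads, and Acat3 was at 2.02, 7.13 and 3.26 TPM and 3.85, 2.27 and 2.46 TPM in these libraries. Mevalonate kinase, Mvk, was at 103, 59 and 62.6 TPM against 51.7, 38.6 and 35.4 TPM (-0.88 ± 0.29, adjusted p = 0.0294). Phosphomevalonate kinase, Pmvk (chr3:89454541-89469013, plus strand), was at 138, 106 and 106 TPM against 49.3, 62.6 and 54.7 TPM (-1.07 ± 0.23, adjusted p = 0.00401), the sterol enzyme whose lower level in D2.OR was called under all 24 alternatives. Fdps (chr3:89093588-89101959, minus strand), which makes farnesyl diphosphate for sterols and protein prenylation and was the most abundant sterol enzyme, was at 963, 767 and 763 TPM against 308, 369 and 386 TPM. All 3 D2.OR libraries were lower, by a log2 fold change of -1.23 ± 0.37 (adjusted p = 0.0203). For Acat2, Mvk and Fdps the call was lost under 4, 7 and 3 of the 24 alternatives, with highest adjusted p of 0.115, 0.156 and 0.104, each without batch 3. Hmgcs1, the synthase that commits carbon to mevalonate, was at 137, 121 and 112 TPM against 100.4, 111 and 105 TPM and was not called (-0.24 ± 0.31, adjusted p = 0.528). Idi1, the isopentenyl diphosphate isomerase, was not called either (-0.65 ± 0.42, adjusted p = 0.214), although its groups did not overlap.

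From squalene onward, Fdft1, Nsdhl and Sc5d were lower in D2.OR in 3D. Squalene synthase, Fdft1, was at 98.9, 76.5 and 73.7 TPM in D2A1 3D and 55.2, 52.6 and 55.4 TPM in D2.OR 3D (-0.59 ± 0.21, adjusted p = 0.0363). Fdft1 shares 774 bases with Ctsb on the opposite strand, which reached 2707 TPM, and whether the counting used strand is not given in the sources used here. Nsdhl, a sterol dehydrogenase, was at 116, 83.7 and 79.2 TPM against 44.8, 46.9 and 48.8 TPM (-0.97 ± 0.35, adjusted p = 0.04). Sc5d, a sterol desaturase near the end of the pathway, was at 85.6, 78.4 and 83.4 TPM against 55, 47.6 and 49 TPM (-0.65 ± 0.19, adjusted p = 0.0179). In none of the 3 genes did the groups overlap, and the calls were lost under 7, 10 and 5 of 24 alternatives, with highest adjusted p of 0.13, 0.146 and 0.115, for Fdft1 and Nsdhl without D2.OR 3D replicate 1 and for Sc5d without batch 3. Sqle, squalene epoxidase, and Cyp51, the lanosterol demethylase, had log2 fold changes of -0.66 ± 0.27 and -0.97 ± 0.41 and just missed the threshold (adjusted p = 0.0618 and 0.0689), and both were called without batch 1 (-0.55 ± 0.10, adjusted p = 0.00348 and -0.85 ± 0.20, adjusted p = 0.00917). Msmo1, a methylsterol oxidase, was at 198, 157 and 158 TPM against 142, 124 and 132 TPM and was not called (-0.38 ± 0.26, adjusted p = 0.239). Lss, Tm7sf2, Hsd17b7 and Dhcr7 had log2 fold changes of -0.42, -0.43, -0.72 and -0.02 with adjusted p of 0.175, 0.255, 0.207 and 0.966. Ebp, a sterol isomerase, had a positive value of 0.47 ± 0.26 (adjusted p = 0.152), with no overlap of the groups, and was called higher in D2.OR without batch 1 (0.52 ± 0.10, adjusted p = 0.00406).

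Mvd (chr8:122433601-122443422, minus strand), which makes isopentenyl diphosphate in the step after Pmvk, was the only sterol enzyme called higher in D2.OR with all 12 libraries. It was at 160.1, 36.7 and 85.7 TPM in D2A1 2D and 138, 89.4 and 81.5 TPM in D2A1 3D, and at 294, 296 and 309.5 TPM in D2.OR 2D and 335, 319.8 and 353 TPM in D2.OR 3D. All 6 D2.OR libraries were above all 6 D2A1 libraries. The log2 fold change was 1.94 ± 0.37 in 2D (adjusted p = 0.00227) and 1.73 ± 0.36 in 3D (adjusted p = 0.00331). The 2D call held under all 24 alternatives, and the 3D call was lost without batch 3 (adjusted p = 0.0643). Within D2A1 it followed the other sterol enzymes, highest in 2D replicate 1 and lowest in 2D replicate 2, whereas in D2.OR its 6 values lay within 294 to 353 TPM. Mvd overlaps Gm20388 over 9822 bases on the opposite strand, and that gene reached 58.0 TPM.

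**Figure D3:**
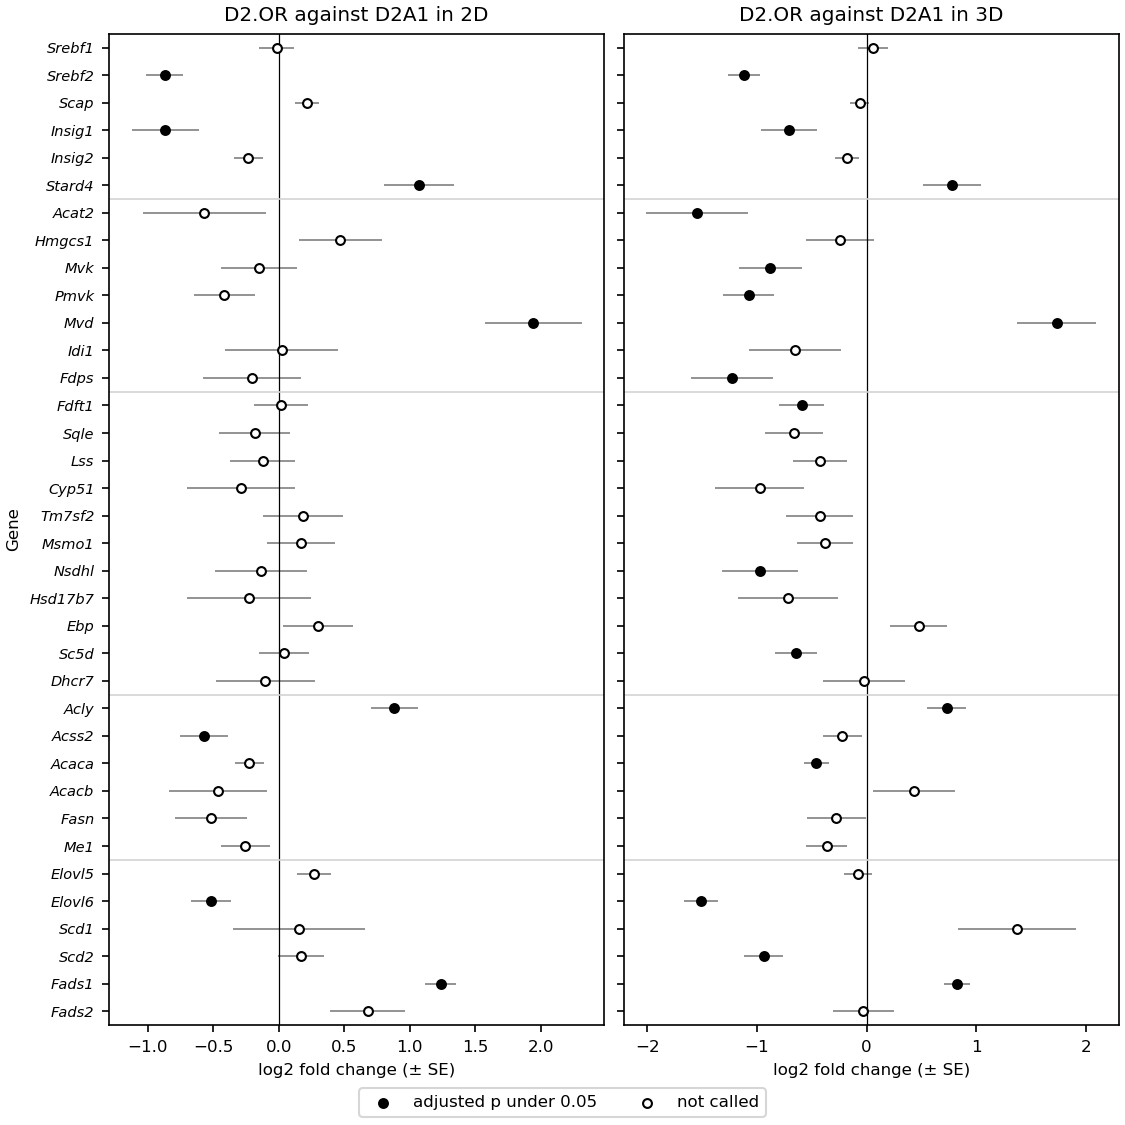
Log2 fold change (horizontal axis, ± SE) of D2.OR against D2A1 for each of the 36 genes in 2D (left) and in 3D (right), with filled points where the adjusted p is under 0.05. The 18 sterol enzymes gather near 0 in 2D apart from Mvd, and 16 of them are below 0 in 3D.

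In 2D the sterol enzymes showed no single direction between the lines. Over all members, 8 were called in 2D (4 higher and 4 lower in D2.OR), which is 22.2% against 49.8% of all genes tested, and the median log2 fold change was -0.11. Mvd was the only sterol enzyme called, and the median of the 18 was -0.11. Within batches this median was -1.02, 0.82 and 0.28, so that the sterol enzymes were on the lower side in D2.OR in batch 1 and on the higher side in batches 2 and 3. Hmgcs1, for example, was at 169, 52.2 and 104 TPM in D2A1 2D and 115, 125 and 153 TPM in D2.OR 2D, with differences of -0.41, 1.40 and 0.68 within the batches. Fdps was at 1099, 289 and 542 TPM against 409, 475 and 557 TPM, with differences of -1.29, 0.86 and 0.15. Both genes had their highest and their lowest level of these 6 libraries in D2A1. Without batch 1, 19 members were called (16 higher, 3 lower, against 53.8% of all genes), 10 of them sterol enzymes that were all higher in D2.OR, and the median of the 18 was 0.46. Without D2A1 2D replicate 1 alone, 15 members were called (11 higher, 4 lower, against 51.2% of all genes). Without batch 2, 6 were called (against 24.9% of all genes), and without batch 3, 3 (against 31.8%).

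**Figure D4:**
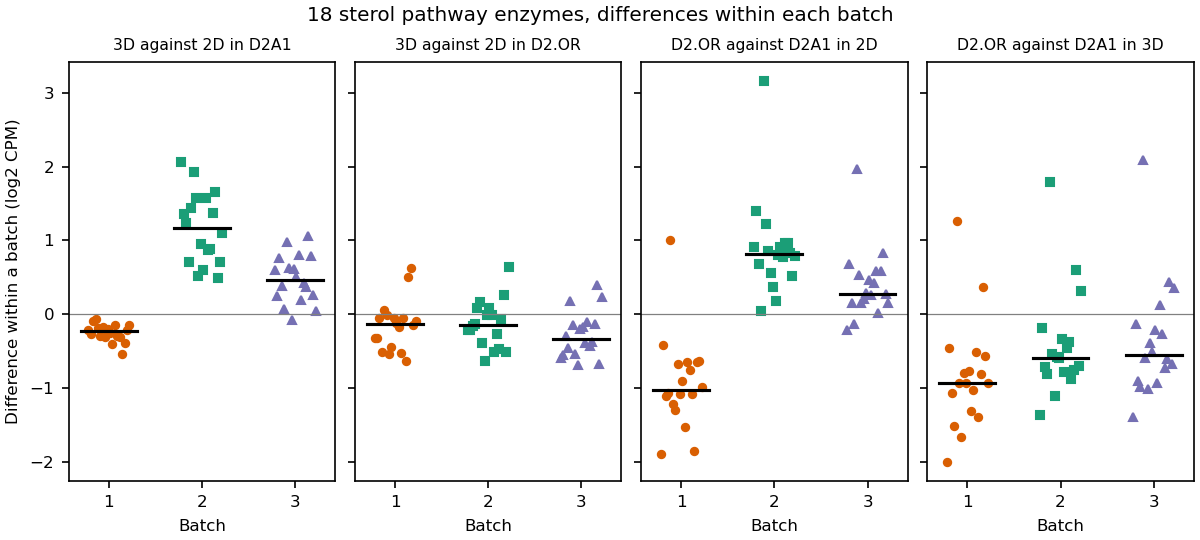
Differences of log2 CPM within each batch (horizontal axis) for the 18 sterol enzymes (1 point per gene), with a bar at their median, for 3D against 2D in each line and for D2.OR against D2A1 in each culture. The batch 1 medians of -0.23 for D2A1 and -1.02 for the lines in 2D lie on the other side of 0 from those of batches 2 and 3.

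The effect of 3D culture on the sterol enzymes of D2A1 cells changed with the batches kept. With all 12 libraries, 1 of 36 members was called between 3D and 2D in D2A1 (2.78% against 3.48% of all genes), and it was no sterol enzyme. All 18 sterol enzymes had a positive log2 fold change (17 of 18 when scaled by DESeq2's size factors), with a median of 0.34, and none was called by edgeR or reached an unadjusted p under 0.05. The median difference within batches was -0.23, 1.17 and 0.47. Without batch 1, 21 members were called (18 higher and 3 lower in 3D), against 36.3% of all genes, and 14 of the 18 sterol enzymes were higher, with a median of 0.74. Leaving out D2A1 2D replicate 1 alone gave 20 called members (18 higher, 2 lower, against 30.3% of all genes), the same 14 sterol enzymes in number and a median of 0.85. Without batch 2 or without batch 3, edgeR called no member, with 1 at an unadjusted p under 0.05 each time and none of all genes called. Over the 18 sterol enzymes the median was then 0.07 or 0.31, with 12 or 17 positive. Hsd17b7, a sterol ketoreductase, was at 38, 6.97 and 12.3 TPM in D2A1 2D and 25.9, 21.3 and 24.9 TPM in D2A1 3D. The level in 2D was thus above the 3D library in batch 1 and below it in batches 2 and 3, with differences of 3D from 2D of -0.53, 1.65 and 1.05 on the log2 scale, and the log2 fold change without batch 1 was 1.35 ± 0.15, adjusted p = 0.000889. Idi1 was at 139.7, 30.5 and 62 TPM in 2D and at a steady 109, 109.7 and 113 TPM in 3D (1.42 ± 0.23, adjusted p = 0.00365, without batch 1). Cyp51 was at 239.7, 59.4 and 111 TPM in 2D and 174, 167 and 172 TPM in 3D (1.16 ± 0.20, adjusted p = 0.0047, without batch 1). In all 3 genes the D2A1 2D libraries ranged from below to above the 3D libraries.

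In D2.OR, no sterol enzyme was called between the cultures with all 12 libraries (edgeR, with 2 of 18 at an unadjusted p under 0.05). Of the 18, 13 had a negative log2 fold change (12 when scaled by the library total alone), and the median was -0.23, with -0.13, -0.14 and -0.33 within batches. Only 2 of the 36 members were called between 3D and 2D in D2.OR, both lower in 3D and both fatty acid enzymes (5.56% against 1.62% of all genes tested). Without batch 1, 8 members were called (2 higher and 6 lower in 3D, against 8.38% of all genes), and of the sterol enzymes these were Fdft1 (-0.66 ± 0.14, adjusted p = 0.0317) and Sc5d (-0.59 ± 0.12, adjusted p = 0.0313). Fdft1 was at 69.2, 81 and 91.1 TPM in D2.OR 2D and 55.2, 52.6 and 55.4 TPM in 3D. Sc5d was at 63.1, 66.4 and 77.8 TPM and 55, 47.6 and 49 TPM. For both, every 3D library was below every 2D library.

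The interaction term asks whether 3D culture acted differently in the 2 lines. It called 0 of 36 members with edgeR's quasi-likelihood test, beside 0.0238% of all genes (4 genes). An unadjusted p under 0.05 was reached by 4 of 36 members and 2997 of the 16823 genes. DESeq2 called 2 members, beside 5.66% of all genes. The median over the 18 sterol enzymes was -0.64, and 0.06, -1.37 and -0.83 within batches. The smallest adjusted p belonged to Elovl6 (-0.99 ± 0.22, adjusted p = 0.11) and Scd2 (-1.10 ± 0.25, adjusted p = 0.111). Without batch 1, the interaction called 18 members (2 higher, 16 lower, against 17.8% of all genes), 12 of them sterol enzymes that were all negative, and the median of the 18 was -1.03. Without D2A1 2D replicate 1 alone, it called 17, all negative, 14 of them sterol enzymes (against 14.5% of all genes). A negative value means a lower 3D to 2D ratio in D2.OR than in D2A1. Hsd17b7 (-1.44 ± 0.21, adjusted p = 0.00681), Sc5d (-1.07 ± 0.17, adjusted p = 0.00953) and Sqle (-0.88 ± 0.15, adjusted p = 0.0108) had the smallest adjusted p of the sterol enzymes in the 8 libraries without batch 1. Without batch 2 or without batch 3, edgeR called no member for the interaction, with 2 at an unadjusted p under 0.05 each time.

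Of the 12 fatty acid enzymes, Elovl5 and Scd2 were called between the cultures, and Elovl6, Scd2, Fads1, Acly, Acss2 and Acaca between the lines in at least 1 culture. Elovl5 (chr9:77917364-77984519, plus strand), an elongase of polyunsaturated fatty acids, was at 134, 161 and 167 TPM in D2A1 2D and 112, 89.6 and 84.4 TPM in D2A1 3D, and at 147, 189.6 and 172 TPM in D2.OR 2D and 93.6, 87.2 and 95.4 TPM in D2.OR 3D. Every 3D library was below every 2D library, also across the lines. The log2 fold change of 3D against 2D was -0.93 ± 0.13 in D2.OR (adjusted p = 0.0147) and -0.58 ± 0.13 in D2A1 (adjusted p = 0.0472), and the interaction was -0.35 ± 0.18 (adjusted p = 0.348). The D2A1 call lay near the threshold and was lost under 15 of 24 alternatives, among them the fit without the replicate block (adjusted p = 0.0643) and those without any 1 of the 10 libraries other than the D2A1 libraries of batch 1, with a highest adjusted p of 0.538 without batch 3. Scd2 (chr19:44293676-44306864, plus strand), a stearoyl-CoA desaturase and the most abundant member by its mean over all libraries, was at 901, 561 and 715 TPM in D2A1 2D and 759, 637 and 539 TPM in D2A1 3D, and at 632, 767 and 807 TPM in D2.OR 2D and 374, 318 and 334 TPM in D2.OR 3D. The D2.OR 3D libraries were below all 9 others. Scd2 was lower in 3D in D2.OR (-1.17 ± 0.18, adjusted p = 0.0215) and lower in D2.OR than in D2A1 in 3D (-0.94 ± 0.18, adjusted p = 0.00194), whereas 3D against 2D in D2A1 gave -0.06 ± 0.18 (adjusted p = 0.838). The D2.OR culture calls of Elovl5 and Scd2 were each lost under 6 of 24 alternatives, namely without batch 2, without batch 3, or without any 1 of the 4 D2.OR libraries of these batches, where at most 31 of all genes were called.

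Elovl6 (chr3:129532355-129638495, plus strand), the elongase that extends palmitate, was at 68.5, 55.1 and 70.9 TPM in D2A1 2D and 63.8, 82.3 and 85.5 TPM in D2A1 3D. In D2.OR it was at 30.9, 45.2 and 53.5 TPM in 2D and 23.3, 28.8 and 32.7 TPM in 3D. The D2.OR libraries were all below those of D2A1, and most of all in 3D. The log2 fold change between the lines was -0.52 ± 0.15 in 2D (adjusted p = 0.0206) and -1.51 ± 0.16 in 3D (adjusted p = 6.9e-05), the smallest adjusted p of any member in 3D, and the 3D call held under all 24 alternatives. In 2D it was lost under 5 of them, with a highest adjusted p of 0.108 without the replicate block. Fads1 (chr19:10182888-10196870, plus strand), a desaturase of polyunsaturated fatty acids, was at 136, 104 and 135 TPM in D2A1 2D, 136, 101 and 99.2 TPM in D2A1 3D, 285, 247 and 273 TPM in D2.OR 2D and 207, 204 and 189 TPM in D2.OR 3D. All D2.OR libraries were above all D2A1 libraries, by 1.24 ± 0.12 in 2D (adjusted p = 4.68e-05) and 0.83 ± 0.12 in 3D (adjusted p = 0.000398), and both calls held under all 24 alternatives. Fads2, its partner desaturase, ranged from 85.1 to 232 TPM and was not called between the lines in either culture with all 12 libraries (0.68 ± 0.29 in 2D, adjusted p = 0.0755, with -0.18, 1.39 and 0.98 within batches). Without batch 1 it was called higher in D2.OR in 2D (1.17 ± 0.16, adjusted p = 0.000939).

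Acly, which makes cytosolic acetyl-CoA from citrate, was at 245, 117 and 166 TPM in D2A1 2D, 214, 161 and 165 TPM in D2A1 3D, 300.1, 317 and 323 TPM in D2.OR 2D and 361, 307 and 324 TPM in D2.OR 3D. It was higher in every D2.OR library, by 0.88 ± 0.18 in 2D (adjusted p = 0.00327) and 0.73 ± 0.18 in 3D (adjusted p = 0.00734). Without batch 3 both calls were lost (adjusted p = 0.0603 and 0.0931), and without batch 2 the 2D call was lost (adjusted p = 0.0598). Acss2, which makes acetyl-CoA from acetate, was at 108, 68.4 and 98.1 TPM in D2A1 2D and 65.2, 53.8 and 49.3 TPM in D2.OR 2D and was lower in D2.OR (-0.57 ± 0.18, adjusted p = 0.0268). In 3D the 2 lines were at 113, 61.8 and 53.8 and 69.1, 65.7 and 57.8 TPM and overlapped, with -0.22 ± 0.18 (adjusted p = 0.326). Its 2D call was lost under 7 of 24 alternatives (highest adjusted p = 0.173, without batch 3), and Acss2 overlaps Gss over 22544 bases on the other strand, at up to 32.4 TPM. Acaca, the acetyl-CoA carboxylase that makes malonyl-CoA for synthesis, was at 53.6, 42.8 and 50.8 TPM in D2A1 3D and 33.4, 38.3 and 33.9 TPM in D2.OR 3D. It was lower in D2.OR without overlap (-0.46 ± 0.11, adjusted p = 0.00747), a call lost without batch 3 (adjusted p = 0.0698). Fasn, the fatty acid synthase, ranged from 99.0 to 236 TPM and was called in no comparison with all 12 libraries, and neither were Me1, a source of NADPH, and Acacb, the carboxylase of the mitochondrial surface. Without batch 1, Me1 was higher in 3D than in 2D in both D2A1 (0.71 ± 0.10, adjusted p = 0.00222) and D2.OR (0.54 ± 0.10, adjusted p = 0.0216).

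**Figure D5:**
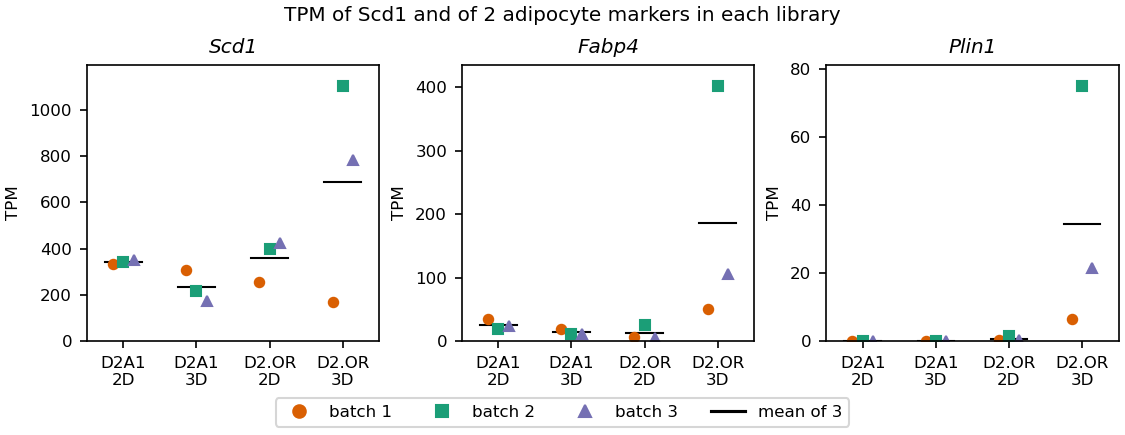
TPM (vertical axis, from 0) of Scd1 and of the adipocyte markers Fabp4 and Plin1 in the 4 groups, with 1 point per library marked by batch and a bar at the mean of 3. In D2.OR 3D all 3 genes are highest in batch 2 and lowest in batch 1. In D2.OR, Fabp4 and Plin1 are higher in 3D than in 2D in every batch, whereas Scd1 is lower in batch 1.

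Scd1 (chr19:44394451-44407709, minus strand), the second stearoyl-CoA desaturase, did not follow Scd2. It was at 334, 341 and 352 TPM in D2A1 2D, 307, 217 and 174 TPM in D2A1 3D, 253, 400.0 and 426 TPM in D2.OR 2D and 170.4, 1106 and 784 TPM in D2.OR 3D. The D2.OR 3D group held both the lowest and the highest of the 12 libraries. The log2 fold change of 3D against 2D in D2.OR was 0.80 ± 0.51 (adjusted p = 0.451), with -0.70, 1.44 and 0.88 within batches, and without batch 1 it was 1.16 ± 0.15, adjusted p = 0.00709. Between the lines in 3D it was 1.37 ± 0.54 (adjusted p = 0.0553), with -0.87, 2.31 and 2.15 within batches. Without batch 1, the batch that went the other way, it was 2.24 ± 0.16, adjusted p = 3.66e-05. In the same 3 D2.OR 3D libraries the 5 adipocyte markers summed to 58.0, 491 and 133 TPM, against 4.41 to 34.0 TPM in the other 9. Fabp4, a fatty acid carrier, was at 50.9, 403 and 105 TPM, Plin1, which coats lipid droplets, at 6.33, 75 and 21.5 TPM, and Cidec, another droplet protein, at 0.51, 10.9 and 5.55 TPM. Adipoq, the adipocyte hormone, was at 0.16, 2.03 and 0.35 TPM and Retn at or under 0.55 TPM. Adipoq and Retn failed the filter on low counts. Plin1, Cidec and Fabp4 were called higher in 3D than in 2D in D2.OR, by 6.1 ± 0.4, 6.2 ± 0.7 and 3.9 ± 0.7. Their adjusted p were 0.00143, 0.00675 and 0.041 (edgeR quasi-likelihood test), and they were also called higher in D2.OR than in D2A1 in 3D. Within batch 1 the difference of 3D from 2D was 4.77, 3.11 and 2.84 for these genes and -0.70 for Scd1. Scd1 and the adipocyte markers were highest in batch 2, and the part of these markers in the D2.OR 3D results, Scd1 included, was not tested. In D2.OR 3D, 12 of the 36 members, Scd1 included, were lowest in batch 1 and highest in batch 2, beside 14.9% of all genes tested. Among them were Fasn (99, 205 and 158 TPM), Me1 (69.8, 117 and 115 TPM), Dhcr7 (30.1, 53.7 and 45.8 TPM), Acacb (6.58, 10.4 and 7.06 TPM) and Fads2 (163, 191 and 177 TPM). Scd2 and Elovl5 were not.

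A further 47 genes of sterol and lipid handling, listed with the members and outside the list of 36, were all tested. Between the lines, 21 were called in 2D (10 higher, 11 lower in D2.OR) and 28 in 3D (17 higher, 11 lower), beside 49.8% and 53.8% of all genes. Among the 7 genes of SREBP processing, 2 were higher and 3 lower in D2.OR in 2D, and 4 higher and 3 lower in 3D. Mbtps2, the protease that makes the second cut in the SREBP precursors, was at 64, 82.5 and 70.3 TPM in D2A1 2D, 67, 74 and 81 TPM in D2A1 3D, 30.03, 31.7 and 40.5 TPM in D2.OR 2D and 28.7, 33 and 36.4 TPM in D2.OR 3D. Like Srebf2, it was lower in all D2.OR libraries (-1.16 ± 0.10 in 2D, adjusted p = 1.87e-05, and -1.27 ± 0.10 in 3D, adjusted p = 1.07e-05). Erlin1, an endoplasmic reticulum protein found with the SREBP, SCAP and INSIG complex, was also lower (-2.23 ± 0.18 in 2D, adjusted p = 1.76e-05, and -1.56 ± 0.18 in 3D, adjusted p = 0.00011). The sterol exporter Abca1, a target of the liver X receptors, was at 16.5, 22.4 and 23.4 TPM in D2A1 2D and 11.3, 7.39 and 5.27 TPM in D2A1 3D (-1.34 ± 0.27, adjusted p = 0.043). Between the cultures, 2 of 47 were called in D2A1, both lower in 3D (3.48% of all genes), and 2 of 47 in D2.OR (1.62% of all genes). In D2.OR, Acsl1, which activates long-chain fatty acids and is abundant in adipocytes, was higher in 3D (2.26 ± 0.42, adjusted p = 0.0401), at 11.2, 17.9 and 14.1 TPM in 2D and 22.2, 158 and 71.6 TPM in 3D, with the same order of batches as Scd1 in 3D. Acsl3, of the same family and found on lipid droplets, was lower (-0.67 ± 0.13, adjusted p = 0.0453), and it was also lower in D2.OR than in D2A1 in 3D (-1.11 ± 0.13, adjusted p = 0.00015).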

How the data were processed

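Total RNA of 12 libraries was sequenced by BGI on a HiSeq. The authors checked reads with FastQC 0.11.4, trimmed them with Trimmomatic 0.32, aligned them with STAR 2.5.3 to GRCm38 with GENCODE M15 genes and quantified them with RSEM 1.3.0. The authors deposited RSEM expected counts, TPM and FPKM per gene: expected counts are estimated reads that need not be whole (10.7% to 11.8% of values were not), and TPM and FPKM are scaled for gene length and depth. Whether RSEM used strand is not given in the sources used here. FPKM were not used, and the TPM of the series table and of the library files differed by 0.0 at most.

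Levels here are the deposited TPM. Expected counts were rounded and tested with edgeR 4.0.16 in R 4.3.3 (TMM, filterByExpr, quasi-likelihood test) over all 12 libraries with group and batch, the replicate number of the labels, as terms. P-values were adjusted by Benjamini and Hochberg over the 16823 genes tested, and a gene was called at an adjusted p under 0.05. The biological coefficient of variation was 21.2%. Log2 fold changes are from counts, and within-batch differences are of log2(CPM + 0.05). DESeq2 1.42.0 and limma 3.58.1, other scalings and filters, only the 6 libraries of a culture comparison, no block, and leaving out each library or batch were the alternatives, 24 in all for each called member. The steps were tested on simulated counts.

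The labels give the replicate number as a batch, so the numbers pair the libraries. Deviations from the group means correlated at a median of 0.267 between libraries of the same number and -0.195 between others. Nothing says that batches were separate thaws of a line, so p-values measure the spread between these libraries. The 36 members and all lists were chosen with earlier results of these data known. Values per library are given for members called in a comparison and for the 3 with the highest TPM among regulators, sterol enzymes and fatty acid enzymes, and of the 47 further genes the 3 with the smallest p among those called in each comparison are named. Acat3 was added after the values were seen, and 1 gene that this rule names is not reported here. Promoters are from RefSeq (GRCm38.p6), with 7 members without an entry: Stard4, Fdps, Fdft1, Sqle, Scd1, Scd2 and Fads1.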

Additional observations from a re-analysis of the deposited data

How the results depend on the processing

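No called member changed direction under any of the 24 alternatives run for it. With all 12 libraries kept, the number of members called between the lines ran from 6 to 10 in 2D (8 as reported) and from 15 to 23 in 3D (16). For 3D against 2D in D2.OR (2 as reported), DESeq2's likelihood-ratio test called 5 and the 6 libraries compared alone called 7. For 3D against 2D in D2A1 (1 as reported), DESeq2 called 3, while scaling by library total alone and the 6 libraries compared alone called 0 each, and for the interaction (0 as reported) DESeq2 called 2. Without the replicate block, which pairs libraries by batch, 6, 15, 2, 0 and 0 members were called in 2D, in 3D, in D2.OR, in D2A1 and for the interaction. The calls lost that way were Acss2 and Elovl6 in 2D, Insig1 and Mvk in 3D, and Elovl5 in D2A1 (adjusted p = 0.0643).

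Leaving out a library or a batch moved the counts most, from 3 to 19 between the lines in 2D, 5 to 24 in 3D, 0 to 8 for culture in D2.OR, 0 to 21 for culture in D2A1 and 0 to 18 for the interaction. The highest counts came without batch 1 or, in 3D, without D2A1 2D replicate 1, and the lowest without batch 2 or 3. In 3D, leaving out the second D2A1 3D library left 8 calls, and leaving out the first or the third D2.OR 3D library left 10 or 9. The cause was not tested. Srebf2 and Fads1 in both cultures, Mvd in 2D, and Pmvk, Elovl6 and Scd2 in 3D kept their calls between the lines under all 24 alternatives. Scaling by library total alone moved the median over all genes to -0.17 in 2D and -0.10 in 3D, and the median of the sterol enzymes to -0.28 and -0.75. Every member had at least 412 counts in each library, so that counting error was small beside the spread between batches.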
